A study of Homo sapiens with 6 samples.

Results

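CXCL9, CXCL10 and CXCL11 are the interferon-induced chemokines that bind the receptor CXCR3. They were located by gene symbol, and each was a locus of its own with no other symbol, so 3 loci of 55868 named loci in the authors' deposited count table are described. Messenger RNA came from EndoC-βH1, an established human pancreatic beta cell line, in 6 libraries: 3 of control cells and 3 of cells exposed to cytokines. All cells were seeded at 75000 per well in serum-free medium with 11 mM glucose and adhered for 24 h. The cytokine group then received IL-1β at 5 ng/ml, TNF-α at 10 ng/ml, IFN-γ at 50 ng/ml and IL-17 at 100 ng/ml together for 24 h, so no part of a change can be assigned to a single cytokine. The labels call the control libraries unexposed cells sampled before the cocktail, whereas the extraction protocol describes a 24 h culture without it, so time in culture and cytokine exposure cannot be told apart from these sources. Both groups are a single cell line, and the labels do not state that a group's 3 libraries are separate cultures, so the spread behind each p-value is that of these libraries and may be technical.

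CXCL9, CXCL10 and CXCL11 are small secreted proteins of the CXC family without the ELR motif. They draw activated T cells and natural killer cells, which carry CXCR3, along a gradient into inflamed tissue. IFN-γ induces all of them, with IRF1 among the factors that act, and TNF-α and IL-1β add to this through NF-κB at the promoters. Beta cells of inflamed islets in type 1 diabetes are known to make CXCL10.

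The genes lie side by side on the minus strand of chromosome 4 (build hg38, GENCODE release 44). CXCL9 spans 76001275 to 76007509, CXCL10 spans 76021118 to 76023497 and CXCL11 spans 76033682 to 76041415. CXCL9 and CXCL10 are 13608 bases apart and CXCL10 and CXCL11 are 10184 bases apart. The leading transcript of each has 4 exons. Its exons sum to 2761 bases in CXCL9, 1175 bases in CXCL10 and 1479 bases in CXCL11.

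The 250 bases before each start site are shown because all 3 genes moved in the same direction and because these promoters are where interferon-activated factors and NF-κB act. They come from the RefSeq promoter table (GRCh38.p14), are written 5′ to 3′ along the gene, and equal the hg38 letters. Capitals mark matches, on either strand, to the interferon-stimulated response element (GAAA, any 2 bases, GAAA), the gamma-activated site TTCNNNGAA or the narrow NF-κB pattern (GGGA, any 2 bases, TTCC).
CXCL9 promoter, chr4:76007510-76007759, minus strand: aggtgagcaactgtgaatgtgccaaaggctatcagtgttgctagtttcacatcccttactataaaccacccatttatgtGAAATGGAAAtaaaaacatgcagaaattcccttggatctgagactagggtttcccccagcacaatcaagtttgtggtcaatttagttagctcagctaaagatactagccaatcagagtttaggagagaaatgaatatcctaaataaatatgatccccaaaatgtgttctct
CXCL10 promoter, chr4:76023498-76023747, minus strand: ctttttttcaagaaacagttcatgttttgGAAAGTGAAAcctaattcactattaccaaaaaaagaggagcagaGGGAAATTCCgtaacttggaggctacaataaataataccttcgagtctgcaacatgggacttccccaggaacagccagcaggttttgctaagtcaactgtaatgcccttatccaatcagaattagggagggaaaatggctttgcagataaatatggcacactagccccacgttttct
CXCL11 promoter, chr4:76036071-76036320, minus strand: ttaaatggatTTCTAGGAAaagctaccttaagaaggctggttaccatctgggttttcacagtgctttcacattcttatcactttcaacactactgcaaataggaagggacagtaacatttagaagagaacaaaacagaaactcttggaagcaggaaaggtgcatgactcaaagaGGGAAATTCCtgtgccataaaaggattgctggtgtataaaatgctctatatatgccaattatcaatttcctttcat

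The CXCL10 window held both an interferon response element match, 221 to 212 bases before the start, and a narrow NF-κB match, 177 to 168 bases before it. The CXCL9 window held GAAATGGAAA, the interferon pattern, at 171 to 162 bases before the start, and no narrow NF-κB match. The CXCL11 window held a gamma-activated site match, TTCTAGGAA, at 240 to 232 bases before the start and the NF-κB letters GGGAAATTCC at 76 to 67 bases before it, the same 10 letters as in CXCL10. Of 35116 promoter windows of this length, 3.02% held the interferon pattern, 6.57% the gamma-activated site and 1.4% the narrow NF-κB pattern. The wider NF-κB pattern (GGG, any 5 bases, CC), which includes the narrow one, occurred in all 3 windows and in 54.4% of all windows. The letters TATAAA, found in 10.7% of windows, stood 42 to 37 bases before the start of CXCL11 and 191 to 186 bases before that of CXCL9. A match describes letters in a window and shows no binding.

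All 3 chemokines were low in control cells and abundant after cytokines. In bulk RNA, a change in the share of cells that make a transcript and a change in the amount per cell cannot be told apart. The authors' deposited tables hold group values and no values per library, so each level below is a group mean without a spread between libraries. Group means of normalized counts were worked out from the deposited mean over 6 libraries and the deposited fold change, and FPKM (fragments per kilobase of transcript, scaled to library size) are the group values of the authors' Cuffdiff run.

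CXCL10, also called IP-10, had a group mean of 5.09 normalized counts in control and 245439 with cytokines in the authors' deposited count table. In the deposited Cuffdiff table it went from 0.107 to 5384 FPKM. By listed FPKM it ranked 2 in cytokine-exposed cells, after B2M, and 23985 in control among 63707 loci of the deposited Cuffdiff table. That table lists 232 loci at 0 FPKM with cytokines that Cuffdiff did not quantify, the INS locus among them, so the rank leaves these out. By normalized counts with cytokines CXCL10 ranked 4 in the deposited count table. CXCL10 alone held 0.586% of all normalized counts of the cytokine group in the deposited count table. Its deposited log2 fold change was 15.56 ± 0.36 (SE, 95% interval 14.85 to 16.27), with an adjusted p of the authors' DESeq test listed as 0.

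CXCL11, also called I-TAC, had the highest control level of the 3, 65.5 normalized counts in the authors' deposited count table, and reached 22883 with cytokines. In the deposited Cuffdiff table it went from 0.971 to 351 FPKM. Its deposited log2 fold change of 8.45 ± 0.10 (SE, 95% interval 8.24 to 8.65), also with an adjusted p listed as 0 in the authors' DESeq table, was the smallest of the 3 and had the smallest error.

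CXCL9, also called MIG, had a control mean of 0.343 normalized counts and a cytokine mean of 34076 in the authors' deposited count table. In the deposited Cuffdiff table it went from 0.00244 to 293 FPKM. The deposited log2 fold change was 16.60 ± 1.18 (SE, 95% interval 14.29 to 18.91), the highest of 30206 tested loci. Its adjusted p in the authors' deposited DESeq table was 6.81e-44. The size of this fold change rests on about 1 control read. Fitted control means under 1 fell in steps in the deposited count table. Among loci of at least 20 counts with cytokines, 21 had control means of 0.174 to 0.176, 19 had 0.341 to 0.344, 23 had 0.630 to 0.643 and 15 had 0.946 to 0.966, steps taken here as 0, 1, 2 and 3 reads over the control group. With 1 control read against the cytokine total, the ratio would be 102227-fold with an exact 95% counting interval of 18347 to 4037784. Had the control group held 3 reads in all, the ratio would be 34076-fold, or 15.06 on the log2 scale. The authors' deposited Cuffdiff table lists CXCL9 with a log2 fold change of 16.87 and q = 0.381, not past the threshold.

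**Figure D1:**
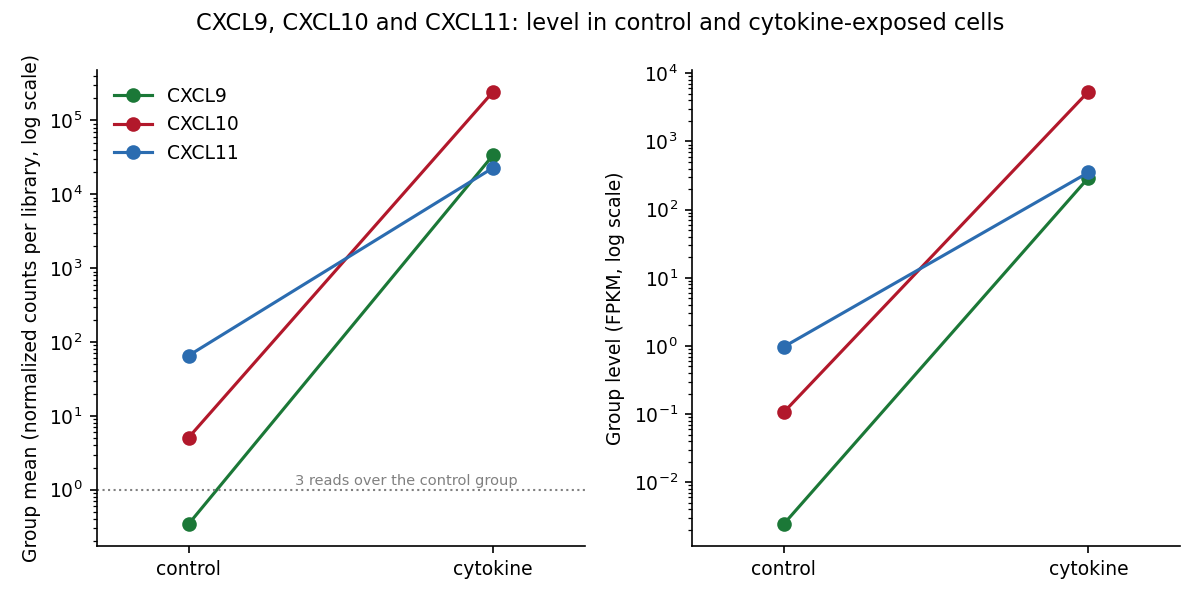
Group means in normalized counts per library (left) and group levels in FPKM (right), both on log axes, for CXCL9, CXCL10 and CXCL11 in control and cytokine-exposed cells, from the deposited tables, which hold no values per library. In control the order is CXCL11, CXCL10, CXCL9 on both scales, and with cytokines CXCL10 is highest; the dotted line marks 3 reads over the control group, above the control value of CXCL9.

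All 3 chemokines were higher with cytokines at an adjusted p of 0.05 in the authors' deposited DESeq table, where 37.7% of 30206 tested loci were called, 18.0% higher and 19.7% lower. In the deposited Cuffdiff gene table, CXCL10 (q = 6.55e-04) and CXCL11 (q = 2.32e-04) were called higher and CXCL9 was not, where 17.8% of 21865 tested genes were higher. The members were chosen with results of these data known, so these counts describe the 3 genes and the shares stand beside them for scale.

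The order of the genes depended on the group and the scale. In control cells the level per length fell from CXCL11 to CXCL10, which was 9.11-fold lower in FPKM in the deposited Cuffdiff table, and again to CXCL9. With cytokines CXCL10 stood 15.4-fold above CXCL11 and 18.4-fold above CXCL9 in FPKM in the deposited Cuffdiff table. CXCL11 was 1.20-fold above CXCL9 per length in the deposited Cuffdiff table, whereas CXCL9 was 1.49-fold above CXCL11 in normalized counts, which are not divided by the longer transcript of CXCL9. Without values per library, whether CXCL9 and CXCL11 differ beyond their spread cannot be read from FPKM.

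Fold changes were compared over the 3 pairs with the deposited SEs taken as independent, although the genes share the 6 libraries. The log2 fold change of CXCL10 exceeded that of CXCL11 by 7.11 (95% interval 6.37 to 7.85) in the deposited count table. That of CXCL9 exceeded CXCL11 by 8.15 (5.83 to 10.47) in the deposited count table, and the floor value of CXCL9, 15.06, also lies above the 8.45 of CXCL11. CXCL9 and CXCL10 differed by 1.04 with an interval of -1.37 to 3.46 in the deposited count table, so their order by fold change was not resolved.

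The deposited errors stood beside the counting error of the few control reads. The control total was 15.3 normalized reads for CXCL10 and 197 for CXCL11 in the deposited count table. Counting error of that many reads alone would be 0.37 and 0.10 on the log2 scale, beside deposited SEs of 0.36 and 0.10. For CXCL9, with about 1 control read, the same formula gives 1.42, above the deposited SE of 1.18, though it is rough at so few reads. By the deposited Wald statistic, the fold change divided by its SE, the order was the reverse of that by fold change: CXCL11 had 80.7, CXCL10 43.1 and CXCL9 14.1.

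Nearly all of each signal came from a single annotated transcript. The 3 loci held 7 transcripts in the authors' deposited Cuffdiff transcript table, of which 4 carried a member's name and 3 were assembled without one, and 6 were tested. Of these 6, 2 were called higher at q under 0.05, beside 5.17% of 95649 tested transcripts. The CXCL10 transcript ENST00000306602 stood at 5368 FPKM with cytokines in the deposited Cuffdiff table, 99.7% of its locus (q = 0.0262). The CXCL11 transcript ENST00000306621 stood at 348 FPKM in the deposited table, 99.4% of its locus (q = 8.33e-04), while the annotated ENST00000503860, which gives the gene its longer span, was listed at 0 FPKM in both groups. The start of ENST00000306621 is the RefSeq start used for the promoter above. CXCL9 had 1 transcript, ENST00000264888, at 293 FPKM with q = 0.629 in the deposited Cuffdiff transcript table. The 3 unnamed transcripts reached 2.14 to 9.04 FPKM with cytokines in the deposited table, with q of 0.505 to 0.658.

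The 3 genes dominated the chemokine transcripts of cytokine-exposed cells. Of a list of 48 human chemokine genes, 46 matched a symbol in the authors' deposited count table, in 45 loci, where 26 were tested, 11 were without reads and 8 with reads lacked an adjusted p. Summed over these 45 loci in FPKM, CXCL9, CXCL10 and CXCL11 held 93.4% with cytokines and 1.12% in control in the deposited Cuffdiff table. CXCL10 alone held 83.4% with cytokines, CXCL11 5.43% and CXCL9 4.54% in the deposited table, which made them ranks 1, 2 and 3 of the list. In control the highest chemokine per length was CXCL12, a homeostatic chemokine and ligand of CXCR4, at 41.7 FPKM in the deposited Cuffdiff table, and it stood at 56.3 FPKM with cytokines. After the 3 CXCR3 ligands, the next levels with cytokines were the neutrophil attractant CXCL1 at 149 FPKM and the membrane-bound chemokine CX3CL1 at 87.2 FPKM in the deposited Cuffdiff table. CXCL12, CXCL1 and CX3CL1 were chosen for mention after their values had been seen.

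Of the 26 tested chemokine loci, 18 were higher and 0 lower in the authors' deposited DESeq table, beside 18.0% higher and 19.7% lower over all tested loci. The median log2 fold change was 2.87, beside 0.05 over all tested loci. Without the CXCR3 ligands, 15 of 23 were higher and the median was 1.91 in the deposited table. CXCL9 and CXCL10 had the largest log2 fold changes of the list. The neutrophil attractant CXCL8 (9.44 ± 0.46, SE) and CXCL5 (8.75 ± 1.19) had larger deposited values than CXCL11, chosen for mention after their values had been seen. CXCL5 lies within its SE of CXCL11, so their order was not resolved. Its control mean was 0.343 counts, and the deposited Cuffdiff table did not call it (q = 0.281). The authors' deposited Cuffdiff table called 1 chemokine locus lower, which joins CCL27 with RP11-195F19.30 and RP11-195F19.5, at q = 0.0150. The deposited DESeq table put that locus at -0.24 with an adjusted p of 0.108.

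**Figure D2:**
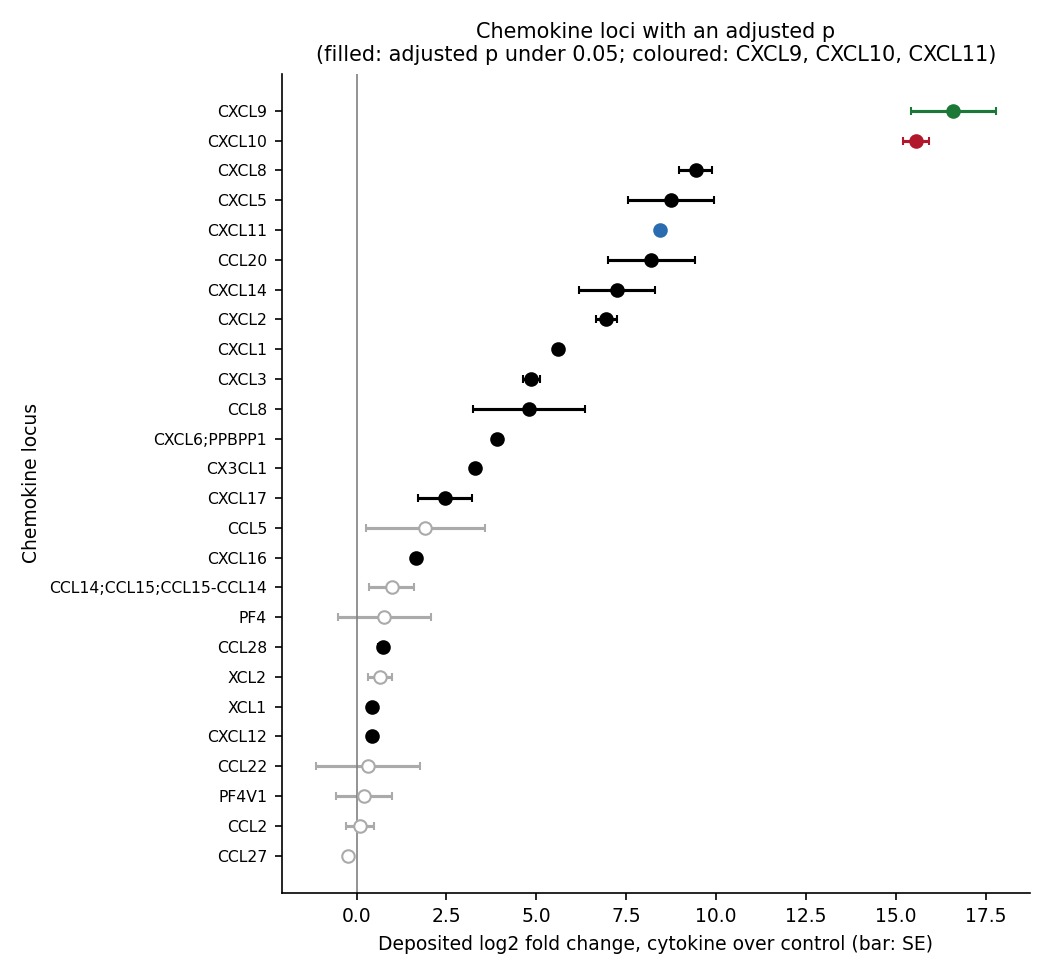
Deposited log2 fold change of cytokine over control (x axis) with its SE (bars) for the 26 chemokine loci that have an adjusted p, 1 row per locus. Filled points had an adjusted p under 0.05; CXCL9 (16.60) and CXCL10 (15.56) stand apart at the right, and CXCL11 (8.45) lies among CXCL8, CXCL5 and CCL20.

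The receptor side was faint. CXCR3 itself, which lymphocytes carry, had 4.29 normalized counts in control and 13.7 with cytokines in the authors' deposited count table (log2 fold change 1.68 ± 0.69, SE; adjusted p = 0.0400, authors' DESeq test), and the deposited Cuffdiff table held it too low to test. ACKR3, a scavenging receptor for CXCL11, had means of 0.135 and 0.482 counts and no adjusted p in the deposited count table. ACKR1, which binds inflammatory chemokines on red cells and vessels, had no read in the deposited count table. DPP4, the protease that clips the amino terminus of all 3 ligands and so weakens them, was the most abundant gene of this list. It rose from 2207 to 3474 counts (normalized, deposited count table), a log2 change of 0.65 ± 0.04. MMP9, a gelatinase that also trims these chemokines, rose from 26.2 to 54.2 counts in the deposited table (1.05 ± 0.32). The platelet chemokines PF4 and PF4V1, which can also bind CXCR3, stood at 0.77 ± 1.28 and 0.21 ± 0.79 in the deposited table and were not past the threshold. In all, 3 of 5 tested genes of this list of 7 were higher and 0 lower in the deposited DESeq table, with a median of 0.77. Among all tested loci 18.0% were higher and 19.7% lower. The call on CXCR3 was lost at a threshold of 0.01, and also at 0.05 when the adjustment ran over all 44614 loci with a p in the authors' deposited DESeq table, with no filter on low counts (adjusted p = 0.0591).

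Most genes on a list of the path from the IFN-γ receptor to these promoters and of its feedback were higher. Of 16 genes, 14 were higher and 1 lower in the authors' deposited DESeq table, and the median log2 fold change was 2.06. The 14 include the feedback genes SOCS3 (6.61 ± 0.67, SE), SOCS1 (6.06 ± 0.12), USP18 (1.14 ± 0.03) and PTPN2 (0.81 ± 0.06), which are not steps towards the promoters. Shares over all tested loci were 18.0% higher and 19.7% lower. All 16 had a mean of at least 10 counts, where calls are more common: 5220 of 19856 such loci were higher and 6049 lower. The ligand-binding receptor chain IFNGR1 stood at -0.08 ± 0.05 (SE) in the deposited table and was not called. The other receptor chain IFNGR2 and the kinase JAK1 rose by only 0.40 ± 0.05 and 0.25 ± 0.03. IRF1, a transcription factor induced by interferons, had the largest rise of the list, 6.67 ± 0.03, in the deposited table. PIAS1, a SUMO ligase that restrains interferon signalling, fell by 0.24 on the log2 scale in the deposited DESeq table, and the deposited Cuffdiff table put it at -0.27 with q = 0.165.

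On the NF-κB side, 21 of 23 tested loci were higher and 1 lower in the authors' deposited DESeq table, with a smaller median of 0.59. Over all tested loci these shares were 18.0% and 19.7%. All 23 had a mean of at least 10 counts, so small changes were also called, such as RELA at 0.30 ± 0.04 (SE). TNFAIP3, the feedback inhibitor A20, had the largest rise, from 342 to 2166 counts (normalized, deposited table), a log2 change of 2.66 ± 0.06 (SE). The count of lower calls was 0 in the deposited Cuffdiff table and also after shifting all log2 values so that loci of at least 1000 counts had a median of 0. IL1R1, the signalling receptor for IL-1, stood at 0.30 ± 0.15 in the deposited table and was not past the threshold.

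RNA-binding proteins that act on AU-rich chemokine messages moved in both directions. Of 6, 3 were higher and 3 lower in the authors' deposited DESeq table, with a median of 0.50, beside 18.0% higher and 19.7% lower over all tested loci. All 6 had a mean of at least 10 counts, where 5220 of 19856 loci were higher and 6049 lower. ELAVL1, counted with RP11-886P16.10 and called lower at -0.31 ± 0.03 (SE), was not called in the deposited Cuffdiff table (q = 0.203). The endonuclease ZC3H12A (Regnase-1), counted with MIR6732, rose from 66.8 to 829 counts (normalized, deposited table), a log2 change of 3.63 ± 0.13 (SE). ZFP36L2, a decay factor, had the largest fall, 0.32 on the log2 scale, and stood at -0.32 ± 0.03 in the deposited table. KHSRP, counted with MIR3940, was the most abundant and stood at -0.26 ± 0.02 in the deposited table.

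The change at the chemokine cluster did not extend at its size to the genes around it. Of 33 named loci within 500 kb of the cluster, or in an assembled bundle reaching that window, 18 were tested, 10 were higher and 1 was lower in the authors' deposited DESeq table, and the median log2 fold change was 0.32. Among all tested loci, 18.0% were higher and 19.7% lower. ART3, a mono-ADP-ribosyltransferase gene on the plus strand whose introns contain CXCL10 and CXCL11, rose from 2.21 to 30.6 counts (normalized, deposited table), a log2 change of 3.79 ± 0.67 (SE). Its annotated exons share 0 bases with those of CXCL10 or CXCL11. The antisense RNA RP11-630D6.5, called SDAD1-AS1 in GENCODE and overlapping CXCL9 on the opposite strand without sharing an exon base, went from 0.645 to 13.2 counts in the deposited table (4.36 ± 1.18, SE). Its adjusted p in the authors' deposited DESeq table was 8.15e-04. No source used here gives the strand setting of the counting or the exons of the assembled loci. Reads outside the annotated exons of ART3 and of this antisense RNA therefore cannot be told apart from those of the chemokines they overlap.

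The other neighbours of at least 10 normalized counts changed by less than the chemokines and ART3, though several changes were clear against their SE. USO1, a vesicle tethering factor of the Golgi, rose by 0.82 ± 0.03 (SE) and SHROOM3, a regulator of cell shape, by 0.68 ± 0.03 in the authors' deposited table. CCDC158 rose by 0.50 ± 0.08, THAP6 by 0.35 ± 0.05 and the ubiquitin ligase RCHY1 by 0.28 ± 0.05 in the deposited table. The locus of NAAA and SDAD1 rose by 0.23 ± 0.04, that of FAM47E and FAM47E-STBD1 by 0.23 ± 0.05 and the lysosomal membrane protein SCARB2 by 0.15 ± 0.02 in the deposited table. CDKL2 fell by 0.45 on the log2 scale in the deposited DESeq table and had q = 0.0870 in the deposited Cuffdiff table. The stress granule protein G3BP2, counted with a Y_RNA, and the nuclear pore protein NUP54, whose gene overlaps the far end of ART3, stood at 0.02 ± 0.03 and -0.02 ± 0.05 in the deposited table and were not past the threshold.

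**Figure D3:**
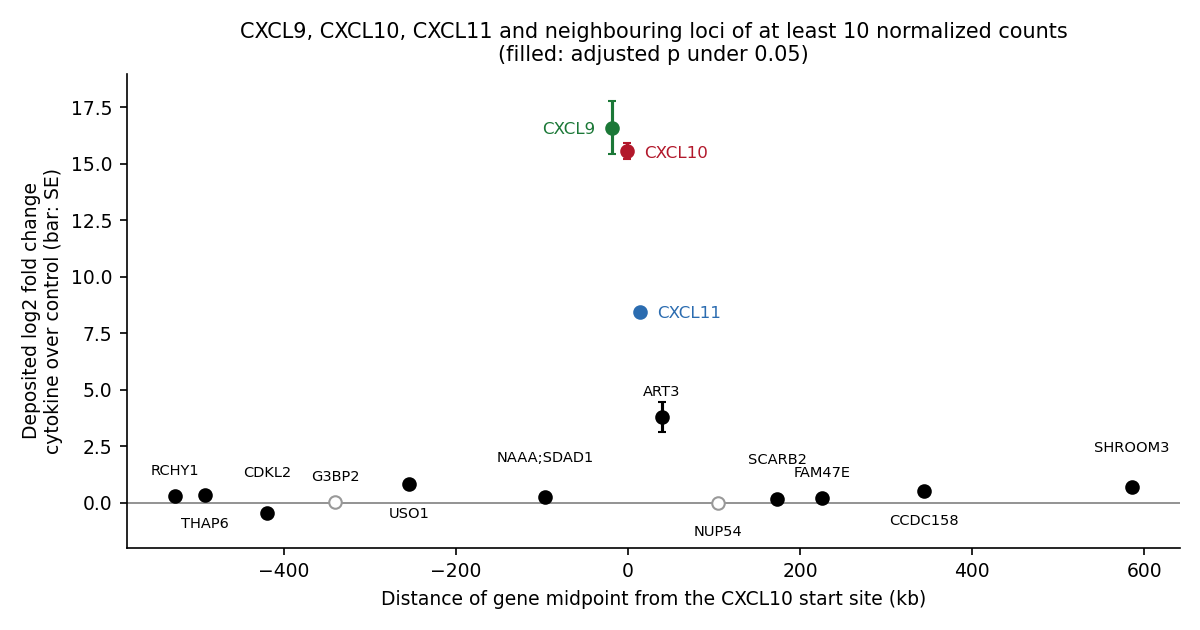
Deposited log2 fold change (y axis, bars are SE) against the distance of each gene's midpoint from the CXCL10 start site in kb (x axis) for the 3 chemokines and the neighbouring loci of at least 10 normalized counts; filled points had an adjusted p under 0.05. CXCL9, CXCL10 and CXCL11 lie between 8.45 and 16.60, ART3 at 3.79, and the other neighbours between -0.45 and 0.82.

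Loci with the most similar pair of group means were sought among 22955 tested loci of a single symbol, by distance in log2(group mean + 1) over the 2 groups. Nearest to CXCL11 were NLRC5, the transactivator of MHC class I genes, IFIT3, an antiviral protein, and ETV7. NLRC5 went from 77.3 to 22804 counts (normalized, authors' deposited table), at a distance of 0.235. CXCL10 had no close match: the nearest, the guanylate-binding protein GBP1, had 8.58 and 65745 counts in the deposited table at a distance of 2.01, followed by GBP5 and RARRES3. Nearest to CXCL9 were GBP5, at 1.59 and 17215 counts in the deposited table (distance 1.37), OR2I1P and GBP4. OR2I1P overlaps UBD on the opposite strand, so its reads are uncertain. This likeness rests on 2 group means of a single comparison and says nothing on shared control.

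**Figure D4:**
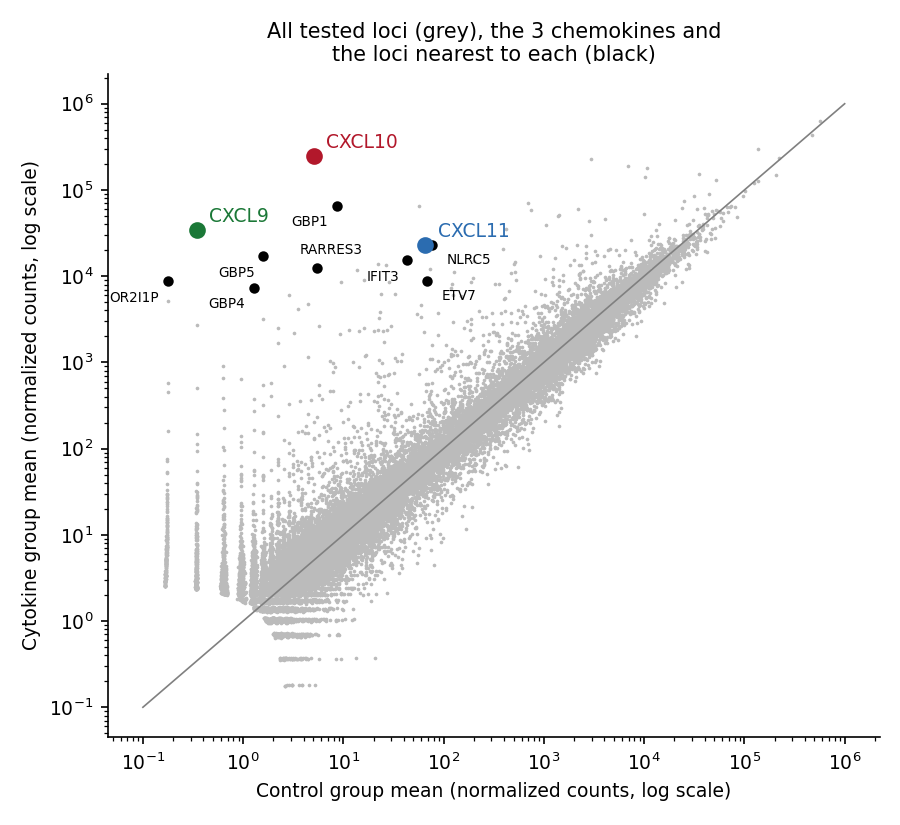
Group mean in control (x axis) against group mean with cytokines (y axis), in normalized counts on log axes, for all 30206 tested loci (grey), the 3 chemokines (coloured) and the loci nearest to each (black); the line marks equal means. CXCL10 lies at 5.09 and 245439 with no other locus close to it, and the vertical stripes at the left are the steps of loci with few control reads.

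The labelled cell type was checked against markers in the same table. INS (in a locus shared with IGF2 and H19), PDX1, NKX6-1, NKX2-2, SLC30A8 and PCSK1 each had over 1000 normalized counts per group in the deposited count table, with NKX2-2 counted together with RP5-984P4.6. Of 8 T and natural killer cell markers, 4 (CD3D, CD2, TRAC and NKG7) had no read, and the list summed to 13.6 normalized counts in control and 18.4 with cytokines in the deposited table. The 8 myeloid and leukocyte markers summed to 107 and 98.5 in the deposited table, most of it CD14, with PTPRC at 2.71 in control and 0.657 with cytokines. The 5 endothelial markers summed to 4.53 and 7.44 in the deposited table. The 5 fibroblast markers summed to 571 and 1440, of which COL1A1 held 532 and 1394, while LUM stood at 0.139 and 0.534 and DCN at 1.02 and 1.42 in the deposited table. The part of COL1A1-expressing cells in the chemokine values was not tested.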

How the data were processed

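Poly(A) RNA of 3 control and 3 cytokine-exposed libraries was sequenced. The submitters' processing notes name build hg38 and, with no roles given here, STAR 2.5.2b, StringTie, DESeq and Cuffdiff 2.2.1 beside bcl2fastq and FastQC 0.10.1. Which read counter, annotation and strand setting were used is not stated. Deposited by the authors as signal, per the file headers, is a mean of normalized counts over all 6 libraries, summing to 40881975 per library. The authors deposited log2 fold changes (cytokine over control) with their SE, and the score is the test statistic. The p-values, adjusted p-values and q-values are those of the authors' deposited tests, and FPKM are the authors' deposited group values.

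The deposited tables hold no values per library, so the authors' adjusted p over all 30206 loci was used at a threshold of 0.05. Unnamed loci, with 1.34% of normalized counts, stayed in the adjustment. The adjustment was recomputed (largest difference 1.53e-15) and, with the re-centring, tested on simulated data drawn with the deposited SEs. Changes were simulated only at loci with small SEs, so that test does not cover CXCL9 or CXCL10. Members, lists and tests were chosen with earlier results of these data known. Genes were named by rule: from each list the largest rise, the largest fall, the most abundant gene and, where at most 5, those not called; neighbours of at least 10 counts; and the 3 loci nearest to each member. Some genes that this rule names are not reported here. Counting intervals (exact Poisson or binomial, 95%) cover counting error only. Alternatives were the Cuffdiff table, re-centring, filters on low counts, a stricter threshold, loci of a single symbol and pseudocounts. Scripts ran in Python 3.11.15 with scipy 1.17.1, numpy 2.4.6, matplotlib 3.10.9 and pandas 2.3.3.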

Additional observations from a re-analysis of the deposited data

How the results depend on the processing

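No paired analysis was possible because values of single libraries were not part of the tables used; leaving out each replicate and a replicate block were not run for the same reason. With the authors' Cuffdiff table in place of DESeq, CXCL9 kept its direction at 16.87 but lost the call (q = 0.381). With group means and a pseudocount of 1 or 0.5 counts CXCL9 stood at 14.63 or 15.30, and with summed transcript FPKM and a pseudocount of 0.1 FPKM CXCL9 stood at 11.48 and CXCL10 at 14.67 on the log2 scale, since a pseudocount shrinks folds from low controls. CXCL11 stayed within its SE, at 8.36 to 8.50, under the 8 alternatives run for it, and kept its call in the 5 that have a test; the pseudocount settings have none. The Cuffdiff table moved the lower calls from 5946 to 3911 over all loci, from 0 to 1 for chemokine genes, from 1 to 0 for interferon signalling genes, from 1 to 0 for the NF-κB arm and from 1 to 0 for the chromosome 4 neighbours, whose higher calls went from 10 to 6 of 12 tested. The single lower call of the NF-κB arm also went to 0 after re-centring, without a filter, at a threshold of 0.01 and among loci of a single symbol. The lower calls among RNA-binding proteins went from 3 to 1 among the 3 loci of a single symbol. Of the member transcripts, 1 of 2 calls was lost at q under 0.01. The other 107 comparisons of a result with an alternative kept direction and side of the threshold, or moved by less than the set margin. Many of these fold changes could not move, since the filters and the stricter threshold reuse the deposited log2 fold change. The margin also let counts differ, as for the members called higher, 3 in the DESeq table and 2 in the Cuffdiff table. Few control reads limit the fold changes of CXCL9 and CXCL10.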

Other observations

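CXCL9 is among the loci with few control reads that the authors' deposited DESeq table called and their Cuffdiff table tested and did not call. Among loci with a control mean under 1 and at least 20 normalized counts with cytokines, the deposited Cuffdiff table tested 36 whose control was listed at 0 FPKM and called 30 of them. It also tested 36 whose control was listed above 0 FPKM, CXCL9 among them, and called 9. The deposited DESeq table called all 36 of each set, which the choice of loci by low control and high cytokine mean nearly fixed beforehand. The tables parted on 6 loci of the first set and 27 of the second. The cytokine means of both sets were alike at the median, 35.3 and 39.7 normalized counts in the deposited count table. CXCL9 had the highest cytokine mean of the second set, 34076 counts, and was not called. The chemokine CCL20 belonged to the first set, with 51.6 counts and q = 2.32e-04, and CXCL5 to the second, with 148 counts and q = 0.281, in the authors' deposited tables.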
